A study of Mus musculus with 8 samples.

Results

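Liver RNA taken 90 min after a single injection of growth hormone (GH) was set against liver RNA taken 30 min after the same injection, in hypophysectomized male CD-1 mice. All 24197 genes of the deposited table were considered. A gene was counted as measured where its gene body level, averaged over both times, was at least 1 FPKM (fragments per kilobase of gene, scaled to library size), which held for 10674 genes, or 44.1% of the table. Intronic signal was measured in 6078 genes, with at least 0.1 intronic FPKM besides. CD-1 is an outbred strain. The supplier had removed the pituitary at 7 weeks, and the mice were 11 weeks old at tissue collection. The GH groups received recombinant rat GH intraperitoneally at 125 ng per g body weight and gave 2 RNA pools at 90 min and 2 at 30 min. The untreated hypophysectomized group and a group killed at 240 min, with 2 pools each, complete the 8 libraries of the series and entered only where named. The legend of the table gives 4 mice per pool. Every animal lacked its own pituitary hormones, not GH alone, and a direct comparison of the GH groups holds the surgery and the injection in common. The time since injection differs between them, and no vehicle group is labelled at 30 or 90 min. Responses to the injection itself and to GH therefore cannot be told apart.

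GH binds its receptor on hepatocytes and activates the kinase JAK2, which phosphorylates the transcription factor STAT5. STAT5 enters the nucleus, binds a palindromic DNA element and induces feedback inhibitors of the pathway, the growth factor gene Igf1 and other transcription factors. In male rodents the pituitary releases GH in pulses, and the pulsatile pattern maintains the male-biased set of liver genes. A single injection into a hypophysectomized male imitates one pulse, and the interval between 30 and 90 min separates the first transcripts of the response from those that follow.

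The table gives the mean FPKM of the pools of a group. Whole reads of each pool could be recovered from the decimals of these means, for every gene above 0 in all 4 groups. The deeper library of a group is called pool A here and the shallower pool B, since nothing in the table ties a library to its labelled pool number. Library totals were 17124712 and 15381216 reads at 90 min, and 9846807 and 9498316 reads at 30 min. A count of 3 reads on a gene of 1 kb corresponded to 0.175 and 0.195 FPKM in the 90 min pools and to 0.305 and 0.316 FPKM in the 30 min pools. The 90 min pools were alike, with a correlation of log2 levels of 0.982 across genes and 186 genes (1.74%) that differed between them by 2-fold or more. The 30 min pools stood farther apart, with a correlation of 0.944 and 951 such genes (8.91%). Intronic reads made up 8.42% and 8.50% of all reads in the 90 min pools, and 8.05% in pool A against 4.67% in pool B at 30 min. p-values measure the spread between pools only, which need not equal that between mice.

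By the quotient of group means, 270 genes (2.53% of measured genes) were at least 2-fold higher at 90 min than at 30 min and 123 genes (1.15%) were at least 2-fold lower. Among the 268 higher genes with pool values, the pools of the 2 times did not overlap in 244, and 114 were 2-fold higher against each of the 30 min pools taken alone. Of 122 lower genes with pool values, 97 did not overlap, 37 were 2-fold lower against each 30 min pool alone, and 11 had the opposite sign against pool A. These counts come from the pools that gave the quotients and are not independent of them. Without 30 min pool A the counts past 2-fold were 830 higher and 193 lower, and without 90 min pool B 191 were lower. Over all genes, both 90 min pools were above both 30 min pools in 25.9% and below both in 18.4%. A test was added on the recovered reads with limma, which borrowed the estimate of spread from all 8 libraries and gave each group its own weight. It called 20 genes higher (0.187%) and 14 lower (0.131%) at a Benjamini-Hochberg adjusted p below 0.05, and 1005 genes had an unadjusted p below that value. "Rose" and "fell" refer below to these 34 genes unless introns are named. With equal weights for all groups 27 of the 34 were still called, 20 of the 20 higher and 7 of the 14 lower. The highest limma adjusted p among the 34 was then 0.237. With only the 4 libraries of the comparison, and no weights, no gene was called. The limma adjusted p of the 34 genes then ran between 0.306 and 0.576. Runs with 1 pool left out were also unweighted, and the reduced group added no spread of its own. The 34 calls were lost with either 90 min pool left out, though these runs also dropped the weights. With either 30 min pool left out the spread came from the other groups, so calls kept there say little about robustness. The direction was the same in 34 of 34 under each of these settings, all of which reuse pools that chose the genes. In bulk tissue, fewer cells of a type and less RNA per cell cannot be told apart.

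**Figure D1:**
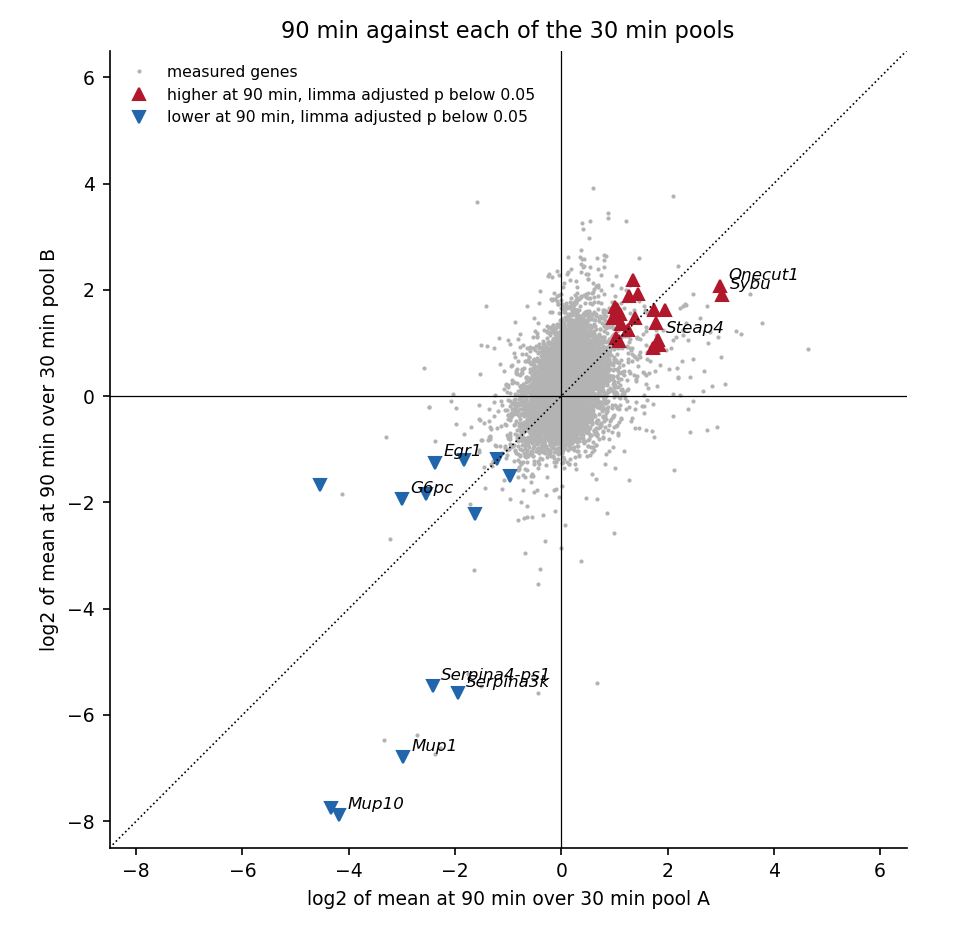
Log2 quotient of the 90 min mean over 30 min pool A (x axis) and over 30 min pool B (y axis) for 10593 measured genes with reads in the pools concerned; triangles mark 33 of the 34 genes that passed limma, and the dotted line marks equal quotients. Genes that rose lie near the line in the upper right, and Serpina3k, Serpina4-ps1, Mup1 and Mup10 lie far below it because 30 min pool B held far more of them than pool A.

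The feedback inhibitors of GH signalling are the fastest STAT5 targets known in liver. Socs2, which binds the GH receptor and directs it to degradation, had 26.0 and 22.9 FPKM in the 90 min pools and 4.40 and 26.0 FPKM in the 30 min pools. The groups overlapped, since 30 min pool B already held the 90 min level and pool A did not. Cish, an SH2 protein that blocks STAT5 docking, had 26.1 and 22.4 FPKM at 90 min and 5.31 and 18.9 FPKM at 30 min. Its pools did not overlap, but the quotient was 2.19 on the log2 scale against pool A and 0.36 against pool B. Neither gene passed limma, with an adjusted p of 0.50 for Socs2 (0.0037 to 0.79 under the other settings) and 0.22 for Cish (0.00029 to 0.77). In the untreated pools Socs2 stood at 0.811 and 1.54 FPKM and Cish at 1.72 and 1.87 FPKM, below each of the 4 GH pools. Cish, on chromosome 9 from 107199019 to 107204292 (mm9), is shown with its promoter because it carries the STAT5 element TTCNNNGAA next to the start. The sequence covers 250 bases before and 50 bases after the start in RefSeq GRCm38.p6 (chr9:107296409-107296708, plus strand), 5′ to 3′, with the matches to TTCNNNGAA in capitals.

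Cish: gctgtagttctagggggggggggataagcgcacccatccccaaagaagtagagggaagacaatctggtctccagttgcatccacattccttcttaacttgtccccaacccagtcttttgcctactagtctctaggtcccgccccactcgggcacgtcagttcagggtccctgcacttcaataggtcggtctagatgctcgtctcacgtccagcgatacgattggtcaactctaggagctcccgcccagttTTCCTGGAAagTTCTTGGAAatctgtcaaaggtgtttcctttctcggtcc

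Both matches lie just downstream of the annotated start. A letter match is a description of the sequence and not evidence of binding.

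Onecut1 (HNF6), a hepatocyte transcription factor whose gene is known to respond to GH through STAT5, had the largest quotient among the genes that rose. It held 31.3 and 25.1 FPKM at 90 min and 3.57 and 6.70 FPKM at 30 min. Each 90 min pool was several times above each 30 min pool, and limma gave a log2 change of 2.48 (SE 0.36, adjusted p = 0.012). The gene lies on chromosome 9 from 74709727 to 74737454 in mm9. Its relative Onecut2 had 17.8 and 13 FPKM at 90 min against 7.01 and 6.04 FPKM at 30 min, with no overlap and an adjusted p of 0.077 in limma. Onecut1 was at 1.67 and 2.43 FPKM untreated and at 29.6 and 30.5 FPKM at 240 min, so the 90 min level was near that of the last time measured.

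Among kinases and phosphatases of the pathway, Pim3, a serine/threonine kinase of a family induced by STAT factors, rose. Its pools held 55.3 and 56.8 FPKM at 90 min and 17 and 29.7 FPKM at 30 min (limma log2 change 1.28, SE 0.24, adjusted p = 0.045). Pim1 had 17.4 and 26.4 FPKM at 90 min against 5.39 and 15.3 FPKM at 30 min and did not pass. Socs4, a further member of the SOCS family, stood at 9.71 and 9.39 FPKM against 4.67 and 2.00 FPKM, also without passing. The receptor and the transducers themselves differed little between the times. Ghr had 110 and 122 FPKM at 90 min and 116 and 112 FPKM at 30 min. Jak2 had 5.27 and 5.44 FPKM against 4.98 and 3.33 FPKM, and Stat5b had 13.7 and 12.1 FPKM against 10.5 and 11.0 FPKM. Of 25 measured genes in the list of GH and STAT5 feedback and early targets, 6 were at least 2-fold higher at 90 min, none was 2-fold lower, and 2 passed limma (Onecut1 and Pim3). The list's median log2 quotient was 0.44 (0.32 against pool A and 0.54 against pool B), beside 0.03 over all measured genes. Of all measured genes, 2.53% were 2-fold higher and 1.15% lower.

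The IGF axis carries the growth signal of GH into the circulation. Igf1, the hepatic growth factor, had 36.4 and 37.3 FPKM at 90 min and 19.3 and 33.8 FPKM at 30 min. These pools did not overlap, with quotients of 0.94 on the log2 scale against pool A and 0.12 against pool B, and an adjusted p of 0.51. Irs2, the adaptor that couples the insulin and IGF1 receptors to PI3 kinase, had 8.47 and 7.92 FPKM at 90 min against 3.77 and 1.99 FPKM at 30 min. Igfbp1, an IGF-binding protein repressed by insulin, was at 5.22 and 7.10 FPKM against 11.4 and 11.7 FPKM. The pools of both genes were apart, Irs2 by more than 2-fold, and neither passed limma. Of 10 measured genes of the axis, Irs2 alone was 2-fold higher, beside 2.53% of all measured genes. The list's median log2 quotient was −0.10, although it was 0.14 against pool A and 0.15 against pool B. Nrep and the carboxylesterase gene Ces2b, fixed by name, rank with the large quotients without passing. Nrep had 26.6 and 24.3 FPKM at 90 min against 3.75 and 12.7 FPKM at 30 min (adjusted p = 0.066), and Ces2b had 6.41 and 9.95 FPKM against 0.697 and 2.17 FPKM (adjusted p = 0.21).

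**Figure D2:**
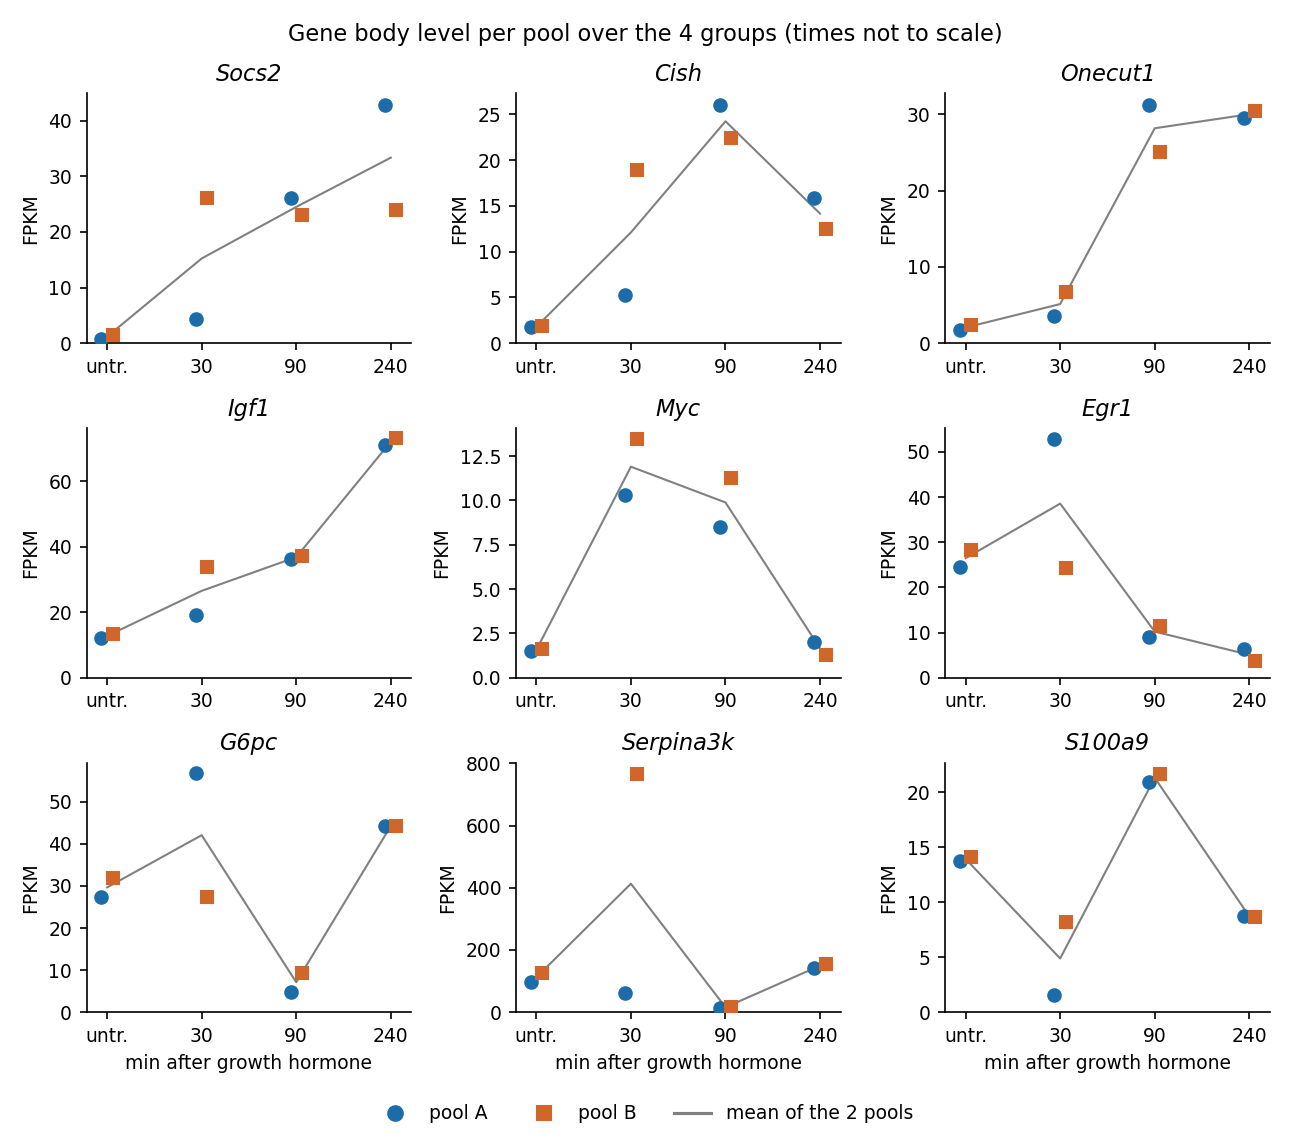
Gene body level in FPKM (y axis) of 9 genes in each pool of the untreated group and at 30, 90 and 240 min after GH (x axis, not to scale); circles are pool A, squares pool B, and the line joins the means of the 2 pools. Onecut1 has its step between 30 and 90 min, G6pc is lowest at 90 min, and Socs2, Cish and Serpina3k differ widely between the 30 min pools.

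The genes that rose besides Onecut1 and Pim3 fall into several roles. Regulators of transcription and translation were Arid5b, Fosl2, Hivep1, Rlf and Cpeb4. Arid5b, a DNA-binding cofactor of metabolic genes, had 44.8 and 38.6 FPKM at 90 min and 15.3 and 11.1 FPKM at 30 min (limma log2 change 1.63, SE 0.25, adjusted p = 0.015). Cpeb4, which binds 3′ ends of mRNAs and controls their poly-A tails, had 26.2 and 24.9 FPKM at 90 min and 7.59 and 8.31 FPKM at 30 min (log2 change 1.64, SE 0.21, adjusted p = 0.0066 in limma). For both genes the pools of each time lay close together and the times lay apart by more than 2-fold. Fosl2, an AP-1 subunit, stood at 8.34 and 7.26 FPKM against 2.98 and 2.82 FPKM. Hivep1, a zinc finger factor, stood at 8.77 and 7.28 FPKM against 3.14 and 1.76 FPKM, and Rlf at 9.24 and 8.32 FPKM against 3.67 and 3.73 FPKM.

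Membrane proteins, transporters and lipid genes made up a second group. Steap4, a metalloreductase of the plasma membrane, was the most abundant gene that rose, with 248 and 228 FPKM at 90 min and 67.5 and 114 FPKM at 30 min (limma log2 change 1.40, SE 0.23, adjusted p = 0.021). Slc39a14, a zinc and iron importer, had 111 and 101 FPKM at 90 min and 51.6 and 49.8 FPKM at 30 min. Slc17a2, a phosphate transporter gene, had 87.8 and 77.5 FPKM against 39.0 and 40.4 FPKM. The pools of these transporters lay close together within each time. Abca1, which exports cholesterol to nascent HDL, had 56.5 and 53.8 FPKM at 90 min against 26.8 and 17.7 FPKM at 30 min (limma log2 change 1.29, SE 0.20, adjusted p = 0.017). Prkaa2, a catalytic subunit of the energy sensor AMPK, had 20.4 and 17.2 FPKM against 9.26 and 5.84 FPKM. B4galt1, a galactosyltransferase of the Golgi, had 41.9 and 34.7 FPKM against 10.8 and 19.7 FPKM. The 90 min pools of the 3 genes lay above the higher 30 min pool.

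Trafficking and signalling genes completed the set. Sybu, which links kinesin to syntaxin in vesicle transport, had 8.52 and 7.73 FPKM at 90 min and 1.00 and 2.18 FPKM at 30 min (limma log2 change 2.42, SE 0.35, adjusted p = 0.012). Plcxd2, a phospholipase C-like gene on chromosome 16 from 45959373 to 46010526 (mm9), had 51.0 and 43.1 FPKM against 12.2 and 15.3 FPKM (log2 change 1.74, SE 0.21, adjusted p = 0.0066 in limma). In both genes the 4 pools separated cleanly by time. Spred1, an inhibitor of RAS-ERK signalling, had 10.4 and 10.8 FPKM at 90 min against 5.39 and 3.83 FPKM at 30 min. Sec24b, a cargo subunit of COPII vesicles, had 12.2 and 10.1 FPKM against 5.21 and 3.81 FPKM, and the GTPase-activating protein genes Tbc1d30 and Usp6nl stood at 8.24 and 6.94 FPKM against 2.19 and 2.94 FPKM, and at 9.44 and 7.18 FPKM against 3.42 and 2.25 FPKM. Susd6 had 27.5 and 22.7 FPKM against 11.5 and 9.81 FPKM. Across the 20 genes the quotient of means ran between 2.08-fold and 5.49-fold. On the log2 scale, the untreated mean lay nearer the 30 min mean than the 90 min mean in 20 of 20. The same held in 13 of the 14 genes that fell. Both sets were chosen by their 90 and 30 min values, so these counts are not independent of that choice. The share over all measured genes was not counted. At 240 min, 7 of the 20 were at most 0.5 times their 90 min level, among them Cpeb4 (8.67 and 8.57 FPKM), Arid5b (9.72 and 12.6 FPKM) and Sybu (2.64 and 2.31 FPKM), and 13 lay between 0.5 and 2 times that level.

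**Figure D3:**
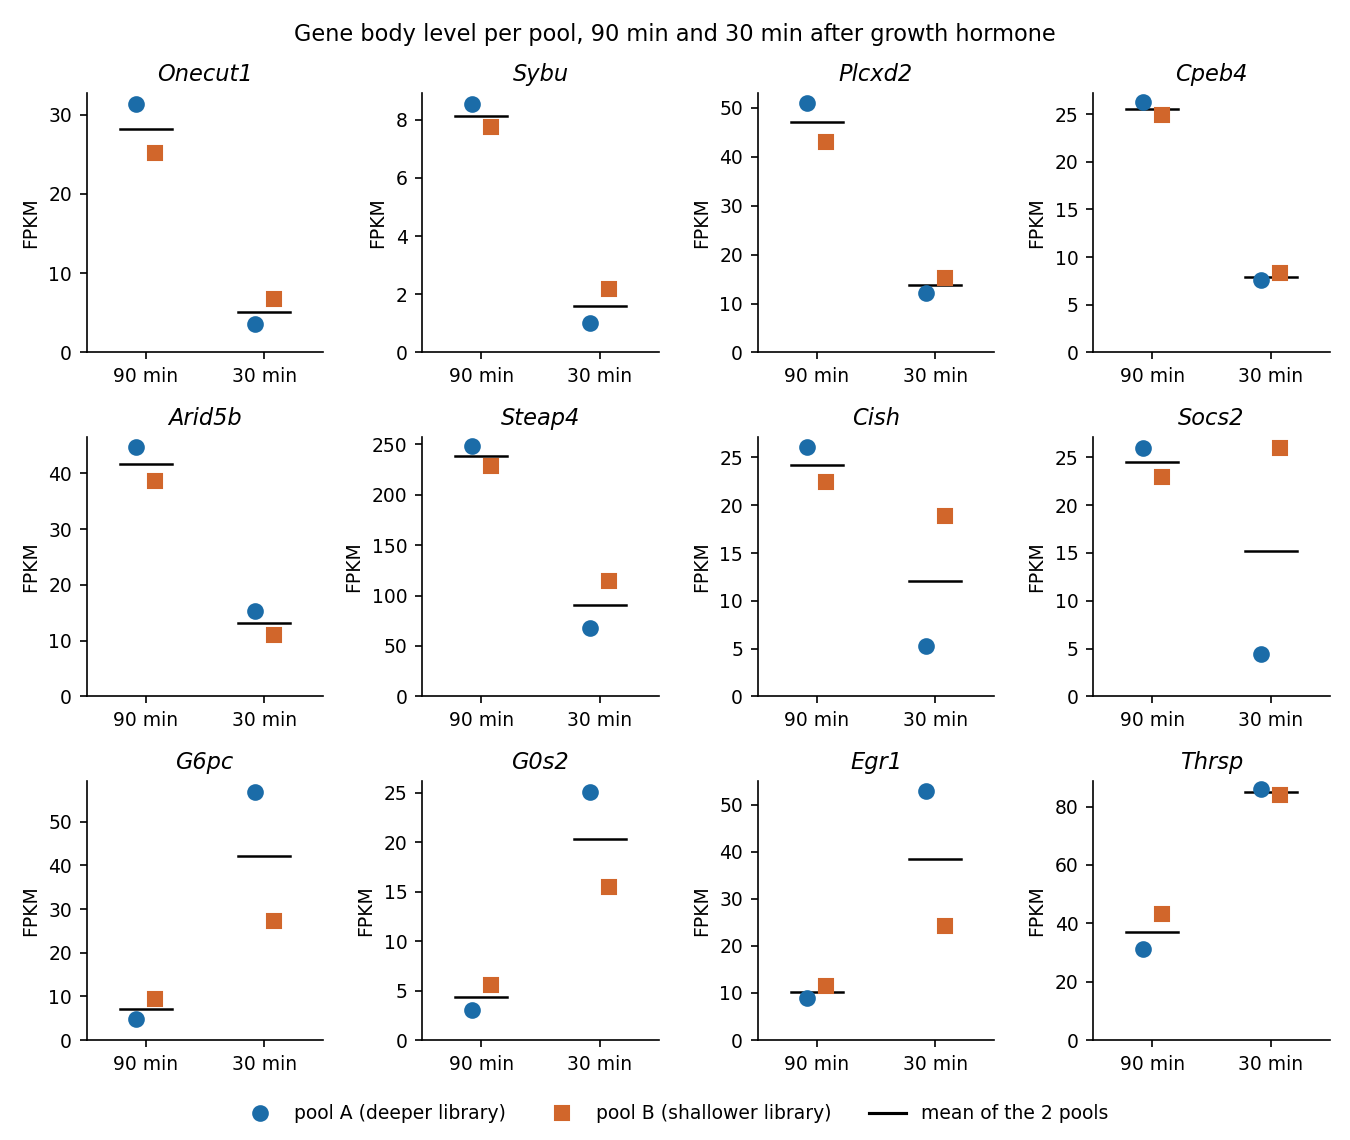
Gene body level in FPKM (y axis, from 0) of 12 genes in each pool at 90 min (left) and 30 min (right); circles are pool A, squares pool B, and bars are means of the 2 pools. Plcxd2, Cpeb4 and Arid5b separate by time with little spread, while the 30 min pools of Cish, Socs2, G6pc and Egr1 spread widely.

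Promoters of Arid5b and Steap4 are shown because they belong to genes that rose and hold the STAT5 element, each over the same window in GRCm38.p6 (RefSeq; Arid5b chr10:68278677-68278976, minus strand; Steap4 chr5:7960222-7960521, plus strand), 5′ to 3′, with the match to TTCNNNGAA in capitals.

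Arid5b: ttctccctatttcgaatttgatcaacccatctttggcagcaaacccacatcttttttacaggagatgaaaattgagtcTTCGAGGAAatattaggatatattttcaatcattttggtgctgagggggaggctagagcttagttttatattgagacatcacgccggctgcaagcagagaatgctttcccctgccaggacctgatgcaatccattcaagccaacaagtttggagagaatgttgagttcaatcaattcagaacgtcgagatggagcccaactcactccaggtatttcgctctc
Steap4: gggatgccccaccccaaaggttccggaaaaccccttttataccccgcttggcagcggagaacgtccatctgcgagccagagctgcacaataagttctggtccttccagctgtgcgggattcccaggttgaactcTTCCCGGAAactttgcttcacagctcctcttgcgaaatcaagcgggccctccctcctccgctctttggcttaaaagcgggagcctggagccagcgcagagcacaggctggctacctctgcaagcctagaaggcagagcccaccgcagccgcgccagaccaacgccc

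RefSeq promoters of this window were found for 17 of the 20 genes that rose, 18 promoters in all. TTCNNNGAA, which reads the same on both strands, occurred in 4 of the 18 (22.2%), those of Arid5b, B4galt1, Slc17a2 and Steap4. It occurred in 4 of 41 promoters (9.76%) of genes whose 90 min pools were both at least 2-fold above both 30 min pools, in 8.3% of all 32851 promoters and in 6.92% of those of measured genes. The Onecut1 promoter holds no such letters in this window.

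Immediate-early genes encode transcription factors and regulators that respond within minutes to many stimuli. Egr1, a zinc finger factor induced through ERK, fell to 8.99 and 11.4 FPKM at 90 min, against 52.8 and 24.3 FPKM at 30 min (limma log2 change −1.87, SE 0.31, adjusted p = 0.022). Both 90 min pools were more than 2-fold below either 30 min pool, and the 240 min pools held 6.35 and 3.78 FPKM. Fos, its AP-1 counterpart, had 1.81 and 2.55 FPKM at 90 min against 8.64 and 3.12 FPKM at 30 min and did not pass. Myc, a driver of cell growth, had 8.50 and 11.3 FPKM at 90 min against 10.3 and 13.5 FPKM at 30 min, with overlap. Untreated livers held 1.51 and 1.63 FPKM of Myc and 240 min livers 2.03 and 1.26 FPKM, so that the pools of both times stood above either. Phlda1 overlapped too, with 262 and 215 FPKM at 90 min and 105 and 231 FPKM at 30 min. Jun had 12 and 10.1 FPKM at 90 min against 6.95 and 6.47 FPKM at 30 min, and Socs3, the cytokine feedback inhibitor, had 27.1 and 48.9 FPKM against 25.8 and 42.8 FPKM. The list did not move as one. Of 28 measured members, 2 were 2-fold higher (Fosl2 and Gadd45b) and 2 were 2-fold lower (Egr1 and Fos). Over all measured genes these shares were 2.53% and 1.15%. The list's median log2 quotient was 0.22 (0.22 against pool A and 0.18 against pool B).

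Genes of glucose output and of fat metabolism were among those that fell. G6pc encodes glucose-6-phosphatase, the last step of hepatic glucose release. It fell to 4.86 and 9.38 FPKM at 90 min, against 56.7 and 27.4 FPKM at 30 min (limma log2 change −2.60, SE 0.37, adjusted p = 0.012). The pools were far apart, untreated livers held 27.4 and 31.9 FPKM and 240 min livers 44.2 and 44.3 FPKM, so that the 90 min pools were the lowest of the 8. Pck1, the committed enzyme of gluconeogenesis, had 175 and 201 FPKM at 90 min against 317 and 200 FPKM at 30 min, with overlap. The glycogen-targeting subunits Ppp1r3b, Ppp1r3c and Ppp1r3g were past 2-fold lower by the means. Ppp1r3b had 14.6 and 31.5 FPKM against 97.4 and 24.6 FPKM, with overlap and without passing limma. Of 26 measured genes of gluconeogenesis and insulin action, 4 were 2-fold lower and 1 was 2-fold higher (Irs2). Over all measured genes these shares were 1.15% and 2.53%. G6pc alone passed limma, beside 0.131% of all genes called lower. The list's median log2 quotient was −0.22 (−0.36 against pool A, −0.09 against pool B).

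The G6pc promoter (chr11:101367466-101367765, plus strand, RefSeq GRCm38.p6) is shown over the same window, 5′ to 3′, because the gene fell and is a textbook target of FOXO factors through the insulin-response core TGTTTTG, in capitals.

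G6pc: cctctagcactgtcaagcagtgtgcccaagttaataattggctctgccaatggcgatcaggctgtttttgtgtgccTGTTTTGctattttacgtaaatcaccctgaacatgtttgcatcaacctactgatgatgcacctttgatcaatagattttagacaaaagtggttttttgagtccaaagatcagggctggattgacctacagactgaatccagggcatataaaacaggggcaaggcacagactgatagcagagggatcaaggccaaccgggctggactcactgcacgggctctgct

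Promoters were found for only 6 of the 14 genes that fell, 1 each. TGTTTTG, searched on both strands, occurred in 4 of these 6 (66.7%; Atoh8, G6pc, Mup10 and Thrsp) and in 0 of 18 of genes that rose. Among genes whose pools were at least 2-fold apart it occurred in 6 of 18 promoters of lower genes (33.3%) and in 3 of 41 of higher genes (7.32%). It occurred in 6.28% of all 32851 promoters and in 4.59% of those of measured genes.

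G0s2, an inhibitor of the triglyceride lipase ATGL, fell to 3.05 and 5.55 FPKM at 90 min, against 25.1 and 15.5 FPKM at 30 min (limma log2 change −2.32, SE 0.40, adjusted p = 0.033). Thrsp, a lipogenic gene responsive to thyroid hormone and carbohydrate, fell to 31.1 and 43.2 FPKM, against 86.0 and 83.9 FPKM at 30 min (log2 change −1.26, SE 0.24, adjusted p = 0.047 in limma). Neither gene's pools overlapped, and at 240 min G0s2 stood at 52.6 and 33.6 FPKM and Thrsp at 62.3 and 56.6 FPKM. Of 22 measured genes of fatty acid and triglyceride synthesis, 3 were 2-fold lower (Thrsp, Acacb and Elovl3) and none was 2-fold higher. Over all measured genes these shares were 1.15% and 2.53%. The list's median log2 quotient was −0.26 (−0.34 against pool A and −0.09 against pool B). Fasn, the fatty acid synthase, had 12.4 and 13.6 FPKM at 90 min against 24 and 19 FPKM at 30 min and did not pass.

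Genes of cholesterol synthesis, driven by SREBP2, had the lowest median of the metabolic lists, −0.47 on the log2 scale (−0.51 against pool A and −0.59 against pool B). In 15 of 25 measured members both 90 min pools were below both 30 min pools, beside 18.4% of all genes. Of the members 3 were 2-fold lower and 1 was 2-fold higher, beside 1.15% and 2.53% of all genes, and none passed limma. Introns were measured in 21 members, with a median log2 quotient of 0.01 relative to the median of all genes and none past 2-fold. Fdps, the farnesyl diphosphate synthase, had 29.1 and 41.8 FPKM at 90 min against 62.1 and 102 FPKM at 30 min (adjusted p = 0.082 in limma). Sqle, the squalene epoxidase, had 2.59 and 6.96 FPKM against 9.46 and 13.3 FPKM, and Msmo1 had 30.5 and 57.5 FPKM against 91.9 and 84.4 FPKM. In these genes each 90 min pool was under each 30 min pool. Stard4, a sterol carrier, went the other way with 59.7 and 51.8 FPKM against 34.4 and 15.1 FPKM. Targets of PPARA and ketogenesis had a median of −0.15 (−0.31 against pool A and −0.12 against pool B), with 3 of 24 measured members 2-fold lower (Angptl4, Fabp1 and Acot1) and none passing.

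Regulators that fell also included Gna14, Atoh8 and Sgk2. Atoh8, a basic helix-loop-helix factor, had 1.74 and 1.80 FPKM at 90 min against 6.30 and 4.07 FPKM at 30 min. Sgk2, a kinase related to AKT, had 6.35 and 5.44 FPKM against 11.5 and 16.6 FPKM, and Gna14, a G protein subunit, had 0.518 and 0.480 FPKM against 1.53 and 2.33 FPKM. The pools of the 3 genes did not overlap.

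The male-biased liver genes include the major urinary proteins (Mup), lipid-binding pheromone carriers whose copies are near identical, so that their reads cannot be assigned with certainty. Mup10 fell to 1.52 and 1.11 FPKM at 90 min, against 23.7 and 309 FPKM at 30 min (limma log2 change −6.03, SE 0.87, adjusted p = 0.012). Mup1 fell to 0.375 and 0.836 FPKM, against 4.76 and 66.9 FPKM (log2 change −4.96, SE 0.94, adjusted p = 0.045 in limma). The 90 min pools were below both 30 min pools, and pool B held far more than pool A. Mup5 had no read in either 90 min pool and 1.75 and 23.7 FPKM in the 30 min pools, which makes it at least 59.9-fold lower at 90 min than the 30 min mean, against a floor of 3 reads per library, and at least 8.23-fold lower than 30 min pool A alone. Serpina3k, a protease inhibitor of a family of close copies, fell to 14.6 and 17.1 FPKM, against 61.2 and 765 FPKM at 30 min (limma log2 change −3.81, SE 0.61, adjusted p = 0.019), and the pseudogene Serpina4-ps1 fell to 1.38 and 1.54 FPKM, against 7.81 and 63.9 FPKM. Gm2083, which has no given name, fell to 0.926 and 0.589 FPKM, against 15.2 and 163 FPKM. It starts at the same base of chromosome 4 as Mup10 and spans that gene, so these calls need not be independent.

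In untreated livers Mup10 stood at 24.5 and 36.4 FPKM and Serpina3k at 97.9 and 126 FPKM, nearer to 30 min pool A than to pool B and above both 90 min pools. At 240 min Serpina3k held 143 and 156 FPKM and Mup10 4.41 and 3.25 FPKM. Hsd3b5, a male-specific steroid dehydrogenase, had 0.327 and 0.324 FPKM at 90 min against 1.58 and 32 FPKM at 30 min, without passing (adjusted p = 0.083). Of 25 measured male-biased genes, 11 were 2-fold lower and 1 was 2-fold higher, beside 1.15% and 2.53% of all measured genes. In this list 2 passed limma (Mup10 and Mup1). Its median log2 quotient was −0.60, but −0.26 against pool A and −0.84 against pool B. Over all genes, both 90 min pools were at least 2-fold below both 30 min pools in 25 (0.234%), and in 12 of these 30 min pool B was more than 5-fold above pool A. Female-biased genes had a median of 0.10 (−0.03 against pool A and 0.44 against pool B) over 26 measured members, with 1 member 2-fold higher (Fmo2) and 1 lower (A1bg). Bile acid genes (21 measured) and P450 genes of families 2 and 3 (24 measured) had medians of −0.08 (−0.08 and −0.12 against pools A and B) and −0.17 (−0.14 against each), with 1 member each 2-fold lower, Slco1a1 and Cyp2f2.

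Of 33 measured acute-phase and inflammatory genes, 8 were 2-fold higher, 2 were 2-fold lower (Orm2 and Orm3) and 16 were above both 30 min pools. The shares over all genes were 2.53%, 1.15% and 25.9%. Steap4 alone passed limma. Il1b, the cytokine interleukin 1 beta, had 19.8 and 28.2 FPKM at 90 min against 8.11 and 7.38 FPKM at 30 min (adjusted p = 0.077). Ccl2, a monocyte chemokine, had 7.32 and 9.11 FPKM against 1.64 and 2.48 FPKM, and Il1rn, the antagonist of the interleukin 1 receptor, had 18.0 and 18.3 FPKM against 6.76 and 8.49 FPKM. All 3 were more than 2-fold apart in every pool. The untreated pools held 18.1 and 19.1 FPKM of Il1b and 8.97 and 11.0 FPKM of Ccl2, so that for these genes the 30 min pools were the lower ones of these groups. Untreated Il1rn was at 9.40 and 9.34 FPKM, near its 30 min level. The classical acute-phase genes differed widely between the 30 min pools, for example Saa1 with 676 and 784 FPKM at 90 min against 136 and 1161 FPKM at 30 min.

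Of the neutrophil markers with a row in the deposited values, 5 of 11 were measured, and these were 2-fold higher by the means. Csf3r and Cxcr2 averaged 0.846 and 0.866 FPKM at 30 min and passed the filter on low values through their 90 min level. Both 90 min pools were above both 30 min pools in 4 of the 5. The exception was Retnlg, with 5.86 and 2.25 FPKM at 90 min against 0.501 and 2.42 FPKM at 30 min. Over all measured genes, 2.53% were 2-fold higher and 25.9% were above both 30 min pools. S100a9 stood with 21 and 21.7 FPKM at 90 min against 1.55 and 8.24 FPKM at 30 min, and S100a8 with 20.9 and 18.9 FPKM against 2.85 and 8.59 FPKM. None passed limma over the gene body. Summed over the markers the level was 54.1 and 50.5 FPKM at 90 min and 6.89 and 21.9 FPKM at 30 min, with 36.0 and 34.7 FPKM in untreated livers. The granule gene Camp was at 0 at both times, Ngp, Ltf, Elane and Mmp8 were below 0.25 FPKM, and Mmp9 averaged 1.16 FPKM at 90 min against 0.377 FPKM at 30 min. Markers of Kupffer cells had a median log2 quotient of −0.27 (−0.12 against pool A, −0.20 against pool B) over 12 measured members with none past 2-fold. Markers of hepatocytes had −0.28 over 10 members, which was 0.11 against pool A and −0.44 against pool B. Lymphocyte markers had −0.67 over 3 members (−0.35 against pool A, −0.93 against pool B), and red blood cell precursor markers −0.60 over 5 (0.16 against pool A, −0.94 against pool B). Cholangiocyte markers had −0.26 over 4 (−0.24 against pool A, −0.30 against pool B), and endothelial and stellate cell markers 0.11 over 15 (0.02 against pool A, 0.33 against pool B). The part of neutrophils in the inflammatory quotients was not tested. Interferon-response genes had a median of 0.61 (0.51 against pool A, 0.64 against pool B) over 25 measured members. Of these, Ifi47, Irgm2 and Stat2 were 2-fold higher and Rsad2 was 2-fold lower, beside 2.53% and 1.15% of all genes. None passed limma. Stat2, a transducer of interferon signals, had 22.4 and 19 FPKM at 90 min against 10.01 and 10.4 FPKM at 30 min.

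Among growth-related lists, ribosome biogenesis genes had a median log2 quotient of 0.25 (0.16 against pool A and 0.33 against pool B) over 34 measured members. Of these, 15 were above both 30 min pools, beside 25.9% of all genes, and 1 was 2-fold higher, beside 2.53%. That gene was Nop58, a core protein of C/D box small nucleolar ribonucleoproteins, with 26.4 and 21.6 FPKM at 90 min against 11.2 and 12.6 FPKM at 30 min, and 42.7 and 40.7 FPKM at 240 min. Rrn3, an RNA polymerase I factor, had 15.3 and 12.2 FPKM against 7.42 and 6.76 FPKM, and Gnl3 had 19.7 and 20.7 FPKM against 10.8 and 11.9 FPKM. None of the list passed limma, although the pools of these 3 genes were clear of each other. Cytosolic ribosomal proteins (44 measured) had a median of −0.20, which was 0.13 against pool A and −0.45 against pool B, and respiratory chain subunits (27 measured) −0.28, with −0.04 and −0.54. No member of either list was past 2-fold. After removal of a trend with gene length and base composition, the 2 medians were 0.05 and −0.05. The median was 0.18 for heat shock genes (21 measured; 0.09 against pool A, 0.43 against pool B), 0.09 for the unfolded protein response (24 measured; 0.07 and 0.18), 0.17 for MYC-linked growth genes (20 measured; 0.12 and 0.16) and 0.15 for hepatocyte transcription factors (23 measured; 0.11 and 0.14). The sign depended on the pool for the clock (19 measured; −0.25 against pool A, 0.35 against pool B), glucocorticoid targets (14 measured; −0.14 and 0.15) and secreted plasma proteins (30 measured; 0.10 and −0.31). None of the members of these 7 lists passed limma over the gene body. In 7 of the 30 lists the median had opposite signs against the 2 pools of 30 min.

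**Figure D4:**
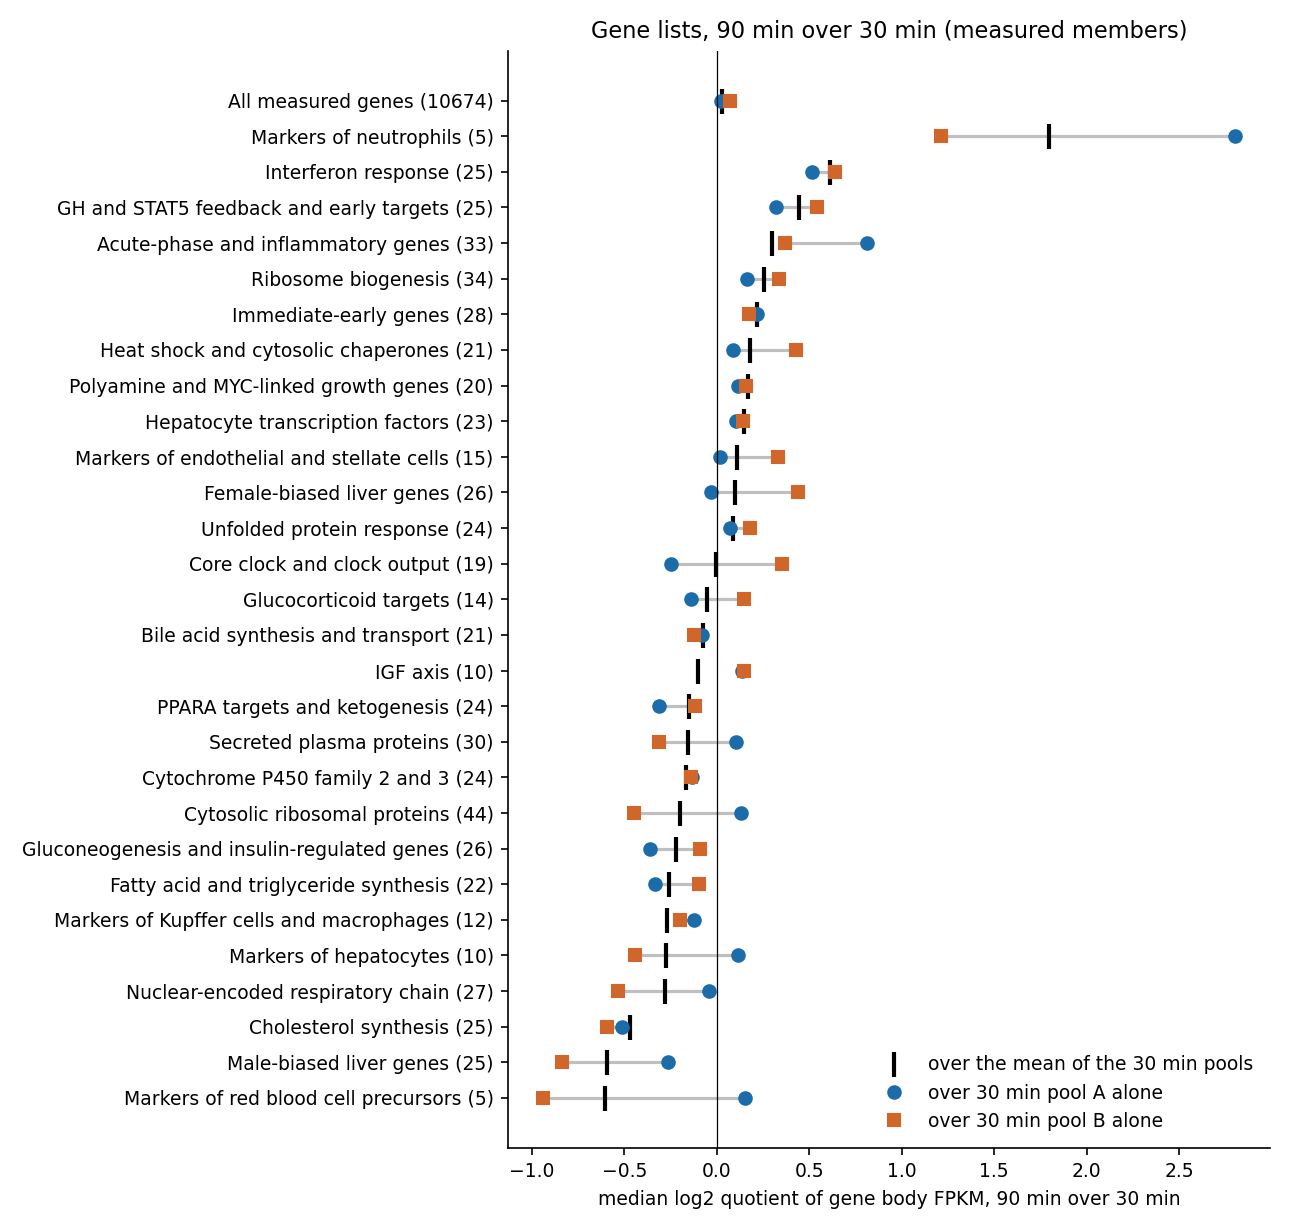
Median log2 quotient of gene body FPKM, 90 min over 30 min (x axis), of the gene lists with at least 5 measured members (y axis, number measured in parentheses), over the mean of the 30 min pools (bar), over pool A alone (circle) and over pool B alone (square). Neutrophil markers lie highest, cholesterol synthesis lies below 0 against both pools, and male-biased genes, ribosomal proteins and hepatocyte markers move with the choice of 30 min pool.

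Intronic reads come mostly from unspliced transcripts and follow transcription more closely than gene body reads. Their median log2 quotient over the 6078 measured genes was 0.49, or 1.40-fold, with 0.14 against 30 min pool A and 1.00 against pool B. Uncorrected, 917 genes (15.1%) were 2-fold higher and 87 (1.43%) lower, against 3077 higher without 30 min pool A, 543 higher and 220 lower without 30 min pool B and 169 lower without 90 min pool B. After the median was subtracted, 242 (3.98%) were 2-fold higher and 308 (5.07%) 2-fold lower. All intronic quotients below are relative to that median. limma called 33 genes higher (0.543%) and 59 lower (0.971%) over introns, and none of these 92 with 4 libraries only, a run without weights. Fewer of the 92 were called with either 90 min pool left out, again without weights and with 1 pool at that time. Scaled by library totals alone, 10 of the 92 were called.

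After subtraction of the median, introns and gene body went the same way in each of the 16 genes that rose and the 10 that fell for which introns were measured. For G0s2 this rested on the subtraction: its uncorrected intronic log2 quotient was 0.29, from 1 and 3 intronic reads at 90 min and 1 and 1 at 30 min. For Steap4 the quotient after subtraction was only 0.08, with 2.61 and 4.50 intronic FPKM at 90 min against 3.04 and 1.74 at 30 min. The intronic pools of G6pc overlapped too, at 0.324 and 0.517 against 0.858 and 0.226. The share of all measured genes with the same sign on both measures was not counted. On both measures limma called Sybu, Slc39a14, Slc17a2 and Tbc1d30 higher, and Egr1, Serpina4-ps1 and Gm2083 lower. The span of Gm2083 includes Mup10. Sybu had 0.311 and 0.284 intronic FPKM at 90 min and 0.0562 and 0.0564 intronic FPKM at 30 min, and Slc17a2 had 15.2 and 14.0 against 3.99 and 3.64 intronic FPKM. Both 30 min pools agreed closely there. Egr1 had 0.172 and 0.192 intronic FPKM at 90 min against 4.94 and 0.311 intronic FPKM at 30 min, so that its intronic signal rested on pool A. Among the 104 genes 2-fold higher over the gene body with measured introns, 50 (48.1%) were also 2-fold higher over introns, which was 20.7% of the 242 intronic genes. Among 45 genes 2-fold lower, 28 (62.2%) were also lower over introns, or 9.09% of the 308.

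Genes called higher by limma over introns but not over the gene body included Il17ra, Tifa, Il1r1, Ptpn1 and Adam9, singled out after their values were seen. Il17ra, the interleukin 17 receptor, had 1.78 and 2.14 intronic FPKM at 90 min against 0.417 and 0.312 at 30 min (limma log2 change 1.91, adjusted p = 0.0025). Tifa, an adaptor of TRAF6, had 8.59 and 8.44 intronic FPKM against 1.11 and 2.36, and Il1r1, the interleukin 1 receptor, 0.254 and 0.277 against 0.0507 and 0.0612. The 90 min pools were several times above both 30 min pools in each. Ptpn1, the phosphatase that acts on JAK2, had 0.244 and 0.247 intronic FPKM at 90 min against 0.0593 and 0.0541 at 30 min, and Adam9, a membrane protease, had 0.432 and 0.382 against 0.0642 and 0.0649. The gene body of Ptpn1 stood at 13.6 and 10.02 FPKM against 6.34 and 6.12 FPKM.

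Genes called lower by limma over introns, relative to the median, but not over the gene body included Ppara, Sds, H2-Q2, Ttr and Cyp4a10, also singled out after their values were seen. Ppara, the fatty acid sensor, had 0.344 and 0.290 intronic FPKM at 90 min against 1.04 and 0.657 at 30 min (limma log2 change −1.93, adjusted p = 0.0021), with a gene body log2 quotient of −0.05. Sds, serine dehydratase, had 1.34 and 1.18 intronic FPKM against 3.44 and 2.04, and H2-Q2, a class I histocompatibility gene with close copies, 0.255 and 0.312 against 1.68 and 1.24. The pools of these 3 genes did not overlap. In others 30 min pool B stood near the 90 min pools before the subtraction. Ttr, the transthyretin gene, had 15.8 and 11.1 intronic FPKM at 90 min against 52.9 and 12.4 at 30 min, and Cyp4a10 had 2.35 and 2.25 against 7.99 and 2.16. Of 23 P450 genes of families 2 and 3 with measured introns, 9 were 2-fold lower, 5 passed limma as lower and none was 2-fold higher. Over all genes with measured introns these shares were 5.07%, 0.971% and 3.98%. The list's median was −0.70 beside 0 for all genes.

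**Figure D5:**
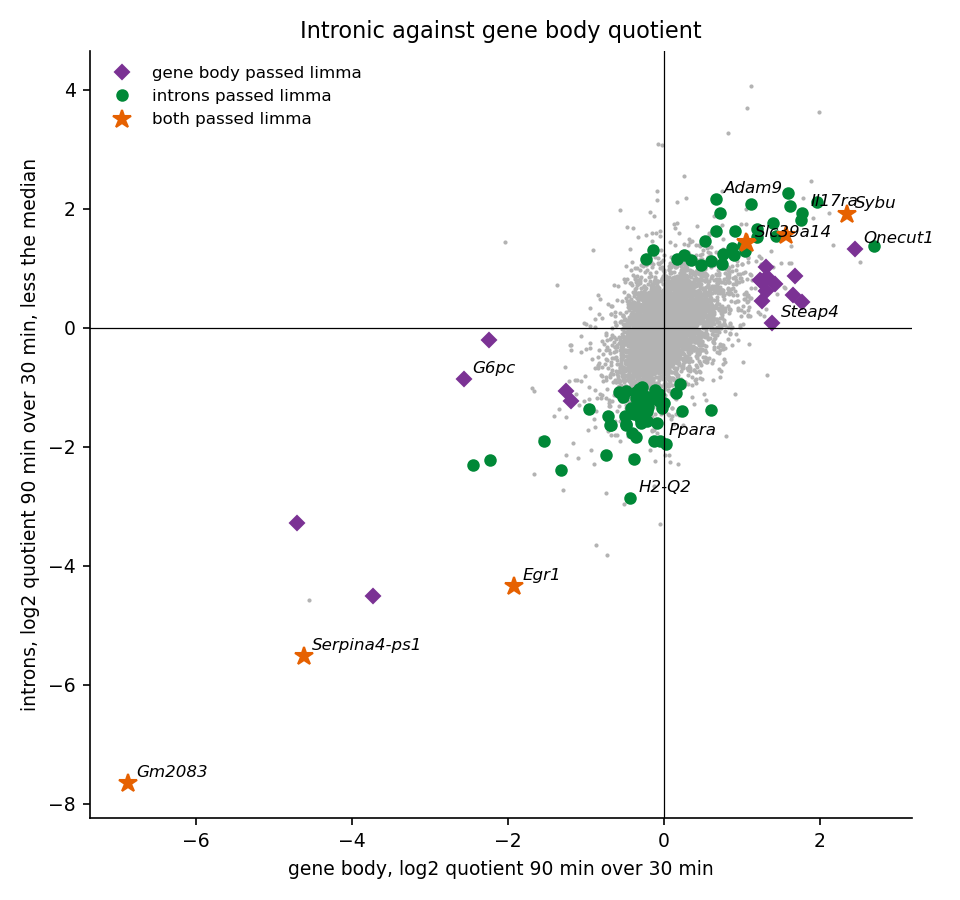
Intronic log2 quotient, 90 min over 30 min, less the median of measured genes (y axis) against the gene body log2 quotient (x axis) for genes with measured introns; diamonds passed limma over the gene body, circles over introns and stars over both. Sybu and Slc39a14 are high on both axes, Egr1, Serpina4-ps1 and Gm2083 are low on both, and many intronic calls such as Ppara and H2-Q2 lie near 0 on the gene body axis.

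The quotients farthest from 1 among named genes were partly those of very short genes. Of the 15 highest, 9 were microRNA or small nucleolar RNA genes with few reads, and of the 15 lowest, 3, with 9 to 72 reads over all 8 libraries each. No value of single small RNAs is given. With both 90 min pools at least 2-fold beyond both 30 min pools, 66 genes (0.619%) were higher and 25 (0.234%) lower. Of the 66, 17 had small RNA names, 12 passed limma, and at 240 min 27 were at most 0.5 times the 90 min level, 36 between and 3 at least 2-fold above it. Zyg11a, a ubiquitin ligase subunit, belongs here with 9.49 and 6.82 FPKM at 90 min against 1.91 and 0.598 FPKM at 30 min (adjusted p = 0.052), as does Ptch1, the Hedgehog receptor, with 10.1 and 9.09 FPKM against 4.10 and 0.978 FPKM. At 240 min Zyg11a stood at 2.78 and 2.94 FPKM and Ptch1 at 2.36 and 3.95 FPKM, below the 90 min pools in both genes. Of the 25 lower genes, 12 passed limma and 17 were at 240 min at least 2-fold above their 90 min level. That need not mean a return to the 30 min level. The mean of Mup10 was 3.83 FPKM at 240 min against 166 FPKM at 30 min, and that of G6pc 44.3 against 42.1 FPKM. The 66 and the 25 genes were chosen by their 90 min values, which favours such shifts at 240 min, and shares over all genes were not counted.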

How the data were processed

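Per the labels' protocols, poly-A RNA of pooled livers was sequenced strand-specifically. The submitters' processing notes list mm9, TopHat2, featureCounts and edgeR, without versions. The deposited FPKM values are the authors' group means over the gene body and over introns, per the file headers. The deposited ratio is the authors' expression ratio over untreated livers, per the file headers, and served as an alternative scaling only. The treatment label speaks of vehicle injection and the design text of untreated controls; they are called untreated here.

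Quotients of 90 min over 30 min means were called at 2-fold. Whole reads per pool and gene lengths were solved from the means within a tolerance of 1.2e-10 FPKM (gene body) and 1.2e-12 FPKM (introns). All 17541 genes above 0 had a solution, and the shortest length that fitted was taken. For 10668 of 10674 measured genes no other length competed, where whole multiples and lengths above a limit were not counted. A whole multiple of length and reads fits equally and leaves FPKM unchanged, so the reads are the fewest that fit. Of the lengths of these genes, 12.4% equalled a GENCODE M21 transcript. The plan named a count test for deposited counts. Since the table holds FPKM, the recovered reads went into limma 3.58.1 (voom, quality weights per group, all 8 libraries; Benjamini-Hochberg), a test added after seeing the data. Both steps were tested on simulated data.

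Members and lists were chosen with earlier results of these data known. Named genes are the 15 highest and 15 lowest quotients (introns 10 and 10), genes fixed by name and up to 4 per list; the genes limma called, and other genes named, were chosen after their values were seen. One gene that limma called is not reported here. Promoters are RefSeq GRCm38.p6. Alternatives were fold thresholds, pseudocounts, filters, scalings and pools left out. Software was R 4.3.3 and Python 3.11.15 with scipy 1.17.1, pandas 2.3.3 and numpy 2.4.6. Intervals were not computed for single values, and the floor of 3 reads covers counting error only.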

Additional observations from a re-analysis of the deposited data

How the results depend on the processing

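No paired analysis was possible because the recovered pools carry no pool number, so that a 90 min pool cannot be tied to a 30 min pool. Counts are given as higher then lower. The 2-fold counts were 270 and 123 over the gene body, 917 and 87 over introns and 79 and 18 on both. With the authors' ratios the intronic counts were 279 and 268 and those on both 45 and 31. Centred on the median they were 242 and 308 over introns, and 46 and 28 on both with gene body and introns each centred (50 and 28 with introns alone centred). At 1.5-fold the 3 pairs were 981 and 393, 2537 and 256, and 325 and 64, and at 3-fold 72 and 45, 186 and 36, and 18 and 10. With pseudocounts of 1 and 0.1 they were 124 and 66 and 329 and 51, with 37 higher on both. A looser filter gave 1891 and 1084, 1608 and 197, and 124 and 35, and a stricter one 103 and 51, 225 and 40, and 22 and 7. Leaving out single pools gave 215 to 830 higher and 110 to 193 lower over the gene body, 543 to 3077 and 82 to 220 over introns, and 75 to 207 and 18 to 33 on both. The most higher calls on each of the 3 came without 30 min pool A. limma's 20 and 14 gene body calls became 69 higher without weights, 0 and 0 with 4 libraries (928 genes at an unadjusted p below 0.05), and 0 to 1635 and 0 to 1380 with single pools left out. Both 90 min pools gave 0 when left out, with 686 and 1147 genes at an unadjusted p below 0.05. Its 33 and 59 intronic calls became 62 and 89 without weights, 8 and 2 with library totals only, 0 and 0 with 4 libraries (716 unadjusted), and 17 to 212 and 10 to 414 with single pools left out. Genes separated by 2-fold numbered 107 to 620 higher and 56 to 121 lower with single pools left out. The cause of these shifts was not tested. Of 166 named genes, a change of direction was counted only in those past 2-fold in the main setting. Among those, A1bg alone changed direction under any setting, with a log2 quotient of −4.43 overall. Its quotient lay between −5.41 and 0.68 with single pools left out, the positive value without 30 min pool B. Named genes under 2-fold, such as Socs2, could change sign without being counted. Depth limits genes near 1 FPKM most, since 3 reads on 1 kb equal 0.316 FPKM in the shallowest of the 4 pools.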

Other observations

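The 90 min over 30 min quotient was higher in longer genes. Across 10245 genes with a GENCODE M21 transcript, which are not independent replicates, Spearman's rho with length was 0.51. It was 0.09 against 30 min pool A alone and 0.63 against pool B alone, and between pool A and pool B of 30 min it was 0.60. Genes under 1500 nt had a median log2 quotient of −0.23 and genes of 6000 nt or more 0.41. After removal of a trend with length and base composition, 185 genes were 2-fold higher and 101 2-fold lower over the gene body. The median log2 quotient of hepatocyte markers was then 0.00014 and that of cholesterol synthesis −0.46. Among genes that rose, Abca1 went from 1.31 to 0.80 on the log2 scale and Onecut1 from 2.46 to 2.40.

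The magnesium transporter genes Slc41a1 and Slc41a2 were both among the genes separated by 2-fold. Slc41a2 introns rose by limma (adjusted p = 0.0051), with 0.209 and 0.161 intronic FPKM at 90 min against 0.0218 and 0.0329 at 30 min, and its gene body log2 quotient was 1.59. Slc41a1 had a gene body log2 quotient of 1.92 and did not pass limma. Both were chosen after their values were seen.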
